A study of Mus musculus with 17 samples.

Results

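The 5 genes described here were measured in bulk cortex of 17 male C57BL/6J mice. They were Hipk2, Klf12, Shc3, Gm7292 and Gm20431. They were 5 of 55453 distinct gene symbols in the expression table, and all 5 were among the 16265 genes with a mean of at least 1 TPM (a level per transcript length, scaled to 1000000 per mouse). They were chosen by their measured TPM, as the head of the list of differences between wild-type mice of different ages, the P209L Control mice at 3 weeks and the controls at 8 weeks, ranked by the limma p of that contrast. That contrast is therefore given for them as a description, without a test. The choice also named the level of Gm20431 in P209L mice. All mice came from lines carrying changes in Hnrnph2, an X-linked gene for an RNA-binding protein. At 8 weeks there were 3 hemizygous knockout mice (KO) with 3 wild-type littermates (KO Control), from a line with a frameshifting indel, and 3 hemizygous R206W mice with 3 wild-type littermates (R206W Control). At 3 weeks there were 3 hemizygous P209L mice and 2 wild-type littermates (P209L Control). No mice of a single line were sampled at both ages, so age and line cannot be told apart, and in the mutants neither can age and genotype. Whole cortex was used, so fewer cells of a type and less RNA per cell cannot be told apart.

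Hipk2 encodes homeodomain-interacting protein kinase 2, a nuclear serine/threonine kinase that phosphorylates p53 and other transcriptional regulators. Klf12 encodes a Krüppel-like zinc finger factor that binds CACCC-type sites and represses genes through the corepressor CtBP. Shc3 encodes a neuronal member of the Shc adaptors, which dock on phosphorylated receptors such as the neurotrophin receptors and recruit Grb2 and Sos to activate Ras. Gm7292 and Gm20431 are gene models that resemble other genes closely, so their sequences are given before their levels.

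Gm7292 (ENSMUSG00000104222.1) is annotated as a lincRNA whose longest transcript has 1 exon, at chr6:117716342-117718868 on the plus strand (GRCm38, GENCODE M21). Its 2527 bases aligned to bases 19 to 2553 of 2900097C17Rik, the mouse counterpart of NORAD, a cytoplasmic noncoding RNA known to bind PUMILIO proteins, at 99.17% identity with 9 mismatches and 12 gap bases. 2900097C17Rik has 4915 bases and lies at chr2:156388065-156392979 on the minus strand. Of the 2497 distinct 31-base words of Gm7292, 2144 (85.9%) also occurred in 2900097C17Rik, and 353 occurred in no other annotated gene. The motif TGTANATA, which PUMILIO proteins recognise, was found 9 times in Gm7292 and 11 times in 2900097C17Rik, on the transcribed strand. Among the first 2527 bases of 874 other lincRNA transcripts of at least that length, 22.8% held the motif and 0.114% held as many as 9 copies, which was 1 transcript, of 2900097C17Rik itself. The window of 120 bases of Gm7292 with the most matches (chr6:117717826-117717945, plus strand) and the same bases of 2900097C17Rik (chr2:156391349-156391468, minus strand) are shown because a read from this stretch matches both genes equally well. Capitals mark the motif, and the windows differed at 0 positions.
Gm7292: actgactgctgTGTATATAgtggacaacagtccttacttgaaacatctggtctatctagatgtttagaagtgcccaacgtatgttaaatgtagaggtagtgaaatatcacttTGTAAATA
2900097C17Rik: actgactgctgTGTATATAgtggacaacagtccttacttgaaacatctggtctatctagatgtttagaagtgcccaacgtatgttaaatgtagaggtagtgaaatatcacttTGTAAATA

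Gm20431 (ENSMUSG00000089739.2, chr2:167607850-167661496, minus strand, protein coding) is a read-through model with 1 transcript of 2367 bases. Its exons 1 to 5 (694 bases) lie within exons of Tmem189, which encodes the desaturase that makes plasmalogen lipids. Its exons 6 to 8 (1673 bases) lie within exons of Ube2v1, which encodes a ubiquitin-conjugating enzyme variant that pairs with Ube2n. The 2 parts are 26.8 kb apart in the genome, and 0 bases of the transcript lie outside the exons of Tmem189 and Ube2v1. Of its 2337 words of 31 bases, 26 occurred in no other gene, and all 26 span the join of exons 5 and 6. The join is shown because reads across it are what tells Gm20431 from its neighbours. Lower case marks the end of exon 5 (chr2:167644764-167644793) and capitals the start of exon 6 (chr2:167617948-167617977), both on the minus strand.
Gm20431 join of exons 5 and 6: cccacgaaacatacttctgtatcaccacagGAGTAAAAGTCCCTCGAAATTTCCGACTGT

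The other 3 genes are long, and all lie on the minus strand. Hipk2 (ENSMUSG00000061436.15, chr6:38694390-38876165) spans 181.8 kb, Klf12 (ENSMUSG00000072294.5, chr14:99870632-100284679) spans 414.0 kb and Shc3 (ENSMUSG00000021448.7, chr13:51431041-51569419) spans 138.4 kb. These spans exceed those of 93.8%, 98.2% and 91.1% of the tested genes. Hipk2 and Shc3 shared 0 words of 31 bases with other genes, and Klf12 shared 424 of 6950. RefSeq promoter windows (GRCm38.p6, 250 bases before to 50 bases after a start) matched 2 of the 5 genes, Hipk2 and Klf12, and are printed for these. Capitals mark matches on either strand to the CACCC box, the GC box (GGGCGG), the CCAAT box, the TATA box (TATAAA) and the cyclic AMP response element (TGACGTCA), and matches to a motif can overlap each other. The window at the 5′ end of the Hipk2 span (chr6:38876141-38876440, minus strand) was 80.7% G or C, above 99.2% of all 32851 windows, and held 5 matches to the GC box and 0 to the other motifs. The Klf12 window (chr14:100149747-100150046, minus strand, inside the gene's span) was 45.7% G or C and held 1 match to the CACCC box and 1 to the TATA box. Of all windows, 35.7% held a GC box, 57.5% a CACCC box, 13.6% a TATA box, 37.4% a CCAAT box and 1.79% a cyclic AMP response element. A second Hipk2 window (chr6:38837262-38837561) held 1 match to the CACCC box.
Hipk2: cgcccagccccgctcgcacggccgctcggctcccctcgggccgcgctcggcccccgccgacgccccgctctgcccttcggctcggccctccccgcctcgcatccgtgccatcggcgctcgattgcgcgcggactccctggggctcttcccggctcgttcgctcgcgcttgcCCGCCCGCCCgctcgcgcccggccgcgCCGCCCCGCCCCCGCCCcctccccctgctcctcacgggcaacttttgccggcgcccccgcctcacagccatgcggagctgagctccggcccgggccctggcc
Klf12: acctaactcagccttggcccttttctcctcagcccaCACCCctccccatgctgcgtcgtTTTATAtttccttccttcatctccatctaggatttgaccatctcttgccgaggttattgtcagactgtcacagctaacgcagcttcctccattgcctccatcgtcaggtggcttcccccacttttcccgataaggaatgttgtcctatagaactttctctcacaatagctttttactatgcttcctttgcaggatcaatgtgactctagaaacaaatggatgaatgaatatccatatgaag

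The targeted gene could be checked for the KO label alone. Hnrnph2 was at 21.3 to 24.4 TPM in KO mice and at 80.5 to 145 TPM in their controls. All 6 excitatory neuron markers were detected, with summed levels of 1248 to 1608 TPM at 3 weeks and 1577 to 2676 TPM at 8 weeks. Several libraries stood apart. KO Control 1 had 20.1% of its TPM in mitochondrial transcripts, against 10.7% to 15.4% in the other 16 mice. P209L Control 2 had a summed level of 5 choroid plexus markers of 1777 TPM, against 4.61 to 28.0 TPM elsewhere. The same library held the highest summed levels of the blood (4884 TPM) and oligodendrocyte (6366 TPM) markers. Both P209L Control libraries were high in the sum of 5 skeletal muscle markers, at 114 and 107 TPM, against 43.5 to 59.4 TPM in the other 15 mice. Tnnc1 made up much of that sum (19.2 to 85.5 TPM over all mice), and the muscle creatine kinase gene Ckm was at no more than 0.14 TPM in any mouse.

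The genes were first described in the controls that chose them. In P209L Control mice, Hipk2 was at 4.04 and 6.65 TPM, whereas the 6 controls aged 8 weeks lay between 22.3 and 29.8 TPM. Klf12 was at 4.43 and 4.14 TPM against 14.5 to 21.9 TPM. Shc3 was at 14.8 and 16.7 TPM against 45.4 to 60.1 TPM. Each of these means was between 19.7% and 29.0% of the 8-week mean. Gm7292 was at 62.1 and 56.4 TPM against 219 to 288 TPM, or 23.5% of the 8-week mean. Gm20431 was listed at 0 and 0.1 TPM against 8.12 to 15.4 TPM. The differences in log2(TPM + 1) ± SE were -2.17 ± 0.143 for Hipk2, -1.86 ± 0.139 for Klf12, -1.72 ± 0.135 for Shc3, -2.07 ± 0.126 for Gm7292 and -3.55 ± 0.256 for Gm20431. None of the 5 genes overlapped between these groups, which holds by their choice; 21.5% of all tested genes were lower without overlap. The genes ranked just after the fifth, Shc3, were Gm45640 (-1.80 ± 0.143), Nufip2 (-1.14 ± 0.0940), B3gnt2 (-2.69 ± 0.224), Zfp106 (-1.45 ± 0.121) and Ston2 (-1.38 ± 0.117), so the limit between ranks 5 and 6 does not mark a step in size.

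**Figure D1:**
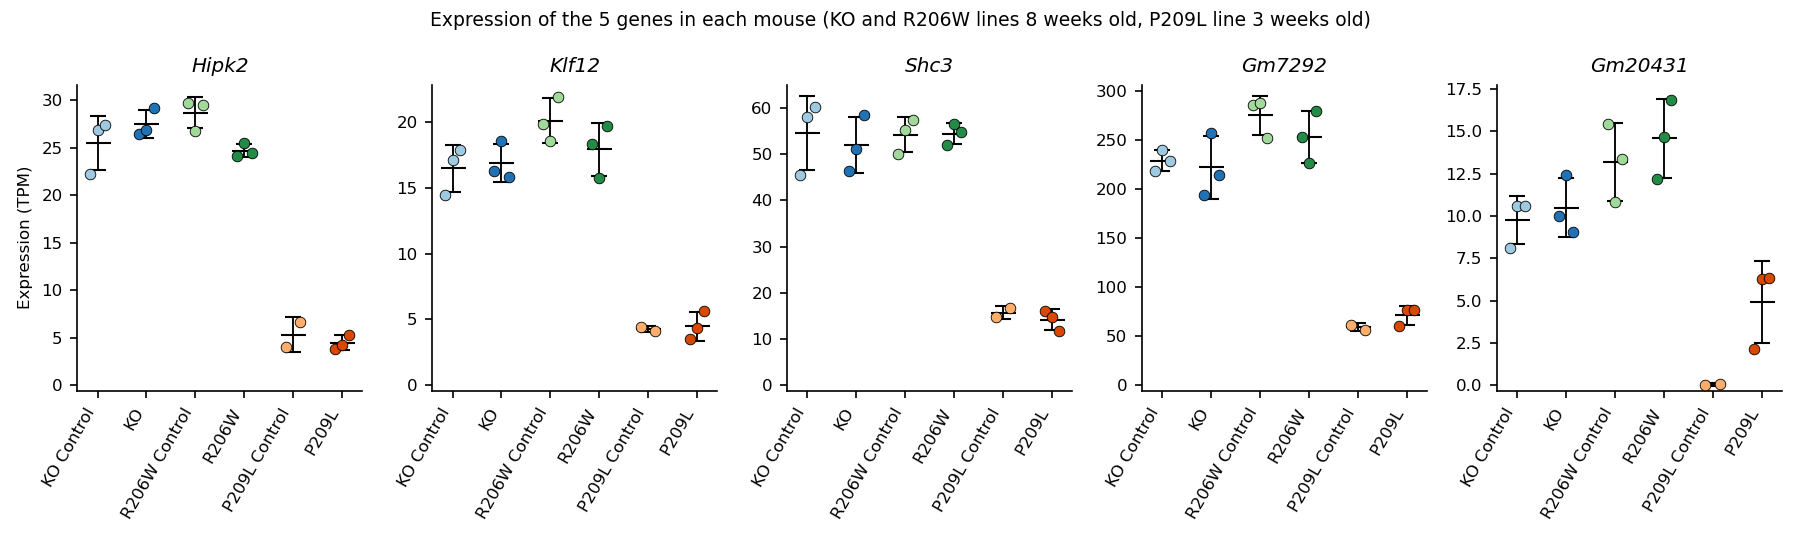
TPM (y axes, linear) of Hipk2, Klf12, Shc3, Gm7292 and Gm20431 in each of the 17 mice (points) by group, with the group mean and SD (bars). Every 3-week mouse lies below every 8-week mouse for each gene, and the 3 P209L mice lie above the 2 P209L Control mice for Gm20431 alone.

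The 9 mutant mice did not enter the direction or size of the differences that ranked these genes, and there P209L mice were tested against 8-week mutants. For Gm20431 the choice also named its level in P209L mice, so its p-values in this contrast are not free of the choice. All 5 genes were lower in P209L mice than in the mean of KO and R206W mice, and in all 5 the P209L mice did not overlap the 6 mutants aged 8 weeks. Of all 16265 genes tested, 34.0% were called lower and 28.6% were lower without overlap. In either direction 47.8% were called, so a call alone was common in this contrast. The spread that ranked the genes was pooled over all 17 mice, so the SEs of these 5 may be on the small side.

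Hipk2 was at 3.82, 4.23 and 5.34 TPM in P209L mice. In KO mice it was at 26.5, 26.8 and 29.2 TPM and in R206W mice at 24.2, 25.5 and 24.4 TPM. The P209L mean was 17.1% of that of the 8-week mutants, a fold of 5.85. The difference was -2.32 ± 0.0987 on the log2(TPM + 1) scale (adjusted p = 1.86e-05 by limma with Benjamini-Hochberg adjustment over all genes). In an exact two-sided permutation test of TPM over the 9 mice, p was 0.0119 for each of the 5 genes, the smallest that the 84 arrangements can give.

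Klf12 was at 3.48, 4.31 and 5.61 TPM in P209L mice. It was at 16.3, 18.5 and 15.8 TPM in KO mice and at 18.3, 15.8 and 19.7 TPM in R206W mice. The P209L mean was 25.7% of the 8-week mutant mean, and the difference was -1.77 ± 0.132 (limma adjusted p = 0.000103). The 6 mutants aged 8 weeks were all above 15 TPM, and no P209L mouse reached 6 TPM.

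Shc3 was at 16.1, 14.8 and 11.7 TPM in P209L mice. It was at 46.4, 51.01 and 58.4 TPM in KO mice and at 52.0, 56.6 and 54.7 TPM in R206W mice. The P209L mean was 26.7% of the 8-week mutant mean, with a difference of -1.84 ± 0.111 (limma adjusted p = 6.65e-05). Among the 3 protein-coding genes with sequence of their own, Shc3 was the most abundant per length at 8 weeks (mean of 53.8 TPM over 12 mice, SD 4.80), followed by Hipk2 (26.6 TPM, SD 2.27) and Klf12 (17.9 TPM, SD 2.09).

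Gm7292 was at 60.3, 77.1 and 77.1 TPM in P209L mice. It was at 195, 257 and 215 TPM in KO mice and at 253, 227 and 280 TPM in R206W mice. The P209L mean was 30.1% of the 8-week mutant mean, with a difference of -1.72 ± 0.119 (limma adjusted p = 8.11e-05). At 8 weeks Gm7292 stood above 97.0% of the tested genes.

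Gm20431 was at 2.14, 6.28 and 6.33 TPM in P209L mice. It was at 9.99, 12.4 and 9.05 TPM in KO mice and at 12.2, 14.7 and 16.9 TPM in R206W mice. The P209L mean was 39.2% of the 8-week mutant mean, with a difference of -1.27 ± 0.261 (limma adjusted p = 0.00383). The choice named the level of this gene in P209L mice, so its test here is not free of the choice. P209L 1 was far below the other P209L mice, and without it the difference was -0.86 (limma adjusted p = 0.00428).

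Under 19 alternatives that kept each gene separate, all 5 genes stayed lower and past the threshold. TPM as deposited placed the median of all genes at -0.16 in this contrast, and rescaling by median-of-ratios size factors moved it to 0.0090. With that rescaling the calls over all genes went from 2247 higher and 5525 lower to 3935 higher and 3776 lower. The differences of the 5 genes were then still -1.11 (Gm20431) or below.

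**Figure D2:**
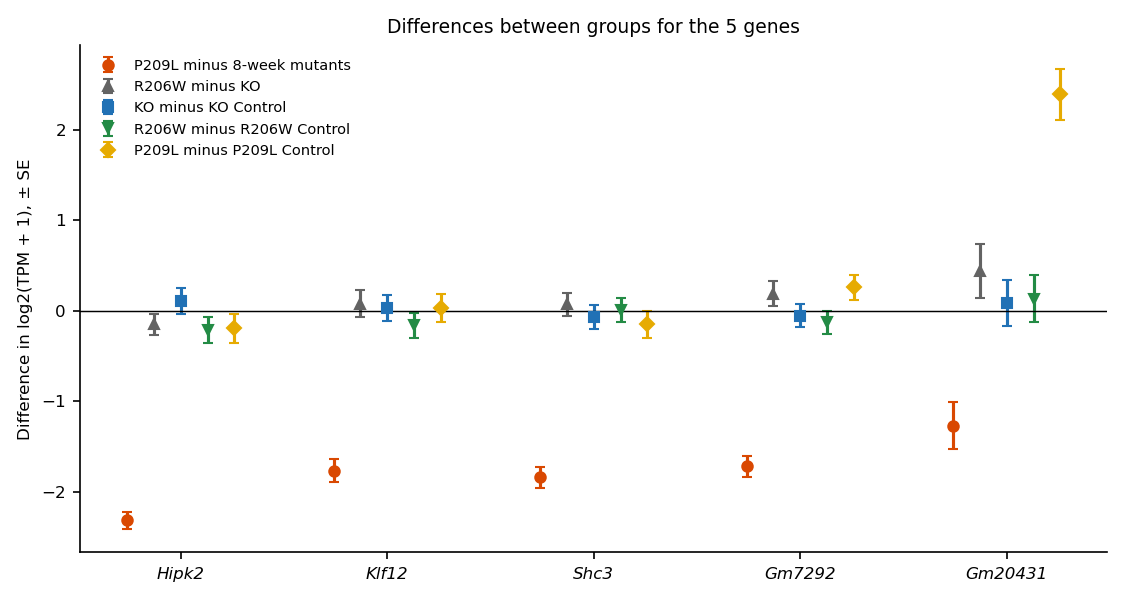
Differences in log2(TPM + 1) ± SE (y axis) for the 5 genes (x axis) in 5 comparisons of group means. Only the differences between P209L and the 8-week mutants, from -1.27 to -2.32, and the difference of Gm20431 between P209L mice and their controls, at 2.39, lie beyond 1 on this scale.

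Among mutants of the same age, none of the 5 genes passed the threshold between R206W and KO mice (limma adjusted p from 0.635 to 0.882, differences from -0.15 to 0.44). In that contrast 0.0553% of all genes (9 of 16265) were called and 1593 genes had an unadjusted p under 0.05. The R206W mice were below the KO mice without overlap for Hipk2 (24.7 ± 0.701 against 27.5 ± 1.47 TPM, mean ± SD, n = 3 each), as were 4.36% of all genes. For the other 4 genes the groups overlapped. In the 8-week controls the order was the opposite, and the mean of Hipk2 was 28.7 ± 1.63 TPM in R206W Control and 25.5 ± 2.82 TPM in KO Control mice, with overlap. Klf12, Gm7292 and Gm20431 were higher in R206W Control than in KO Control mice without overlap, by 0.27 ± 0.139, 0.26 ± 0.126 and 0.40 ± 0.256; 8.43% of all genes were. For Shc3 the means of these control groups were 54.2 and 54.5 TPM. KO Control 1, the library rich in mitochondrial transcripts, held the lowest value of the 12 mice aged 8 weeks for Hipk2, Klf12, Shc3 and Gm20431.

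The mutants were then set beside their own controls. The controls had helped to choose these genes, so differences are given without a test. In KO mice the differences ran from -0.064 ± 0.135 (Shc3) to 0.11 ± 0.143 (Hipk2), and all 5 genes overlapped between KO and KO Control mice, whereas 6.25% of all genes did not. In R206W mice they ran from -0.21 ± 0.143 (Hipk2) to 0.14 ± 0.256 (Gm20431). Hipk2 was lower in each R206W mouse than in each R206W Control mouse, as were 8.11% of all genes, and the other 4 genes overlapped. In P209L mice, Hipk2 (-0.19 ± 0.160), Klf12 (0.031 ± 0.155), Shc3 (-0.15 ± 0.1504) and Gm7292 (0.26 ± 0.141) overlapped with their controls. The Hipk2 difference rested on P209L Control 2, the library with choroid plexus transcripts, since without that mouse it was 0.11.

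Gm20431 was higher in P209L mice than in P209L Control mice, by 2.39 ± 0.286 on the log2(TPM + 1) scale and without overlap. This difference was named in the choice of the gene and has no test, and 14.2% of all genes were higher without overlap. Its size depends on the pseudocount, because the controls were near 0, and was 4.996 with a pseudocount of 0.1. It was 2.33 without P209L Control 1 and 2.46 without P209L Control 2. The summed skeletal muscle markers separated the same groups in the other direction, at 114 and 107 TPM in P209L Control mice and 43.5 to 54.4 TPM in P209L mice, and so did the oligodendrocyte markers, at 4269 and 6366 TPM against 2576 to 3680 TPM. Their part in the Gm20431 difference was not tested. The order of the 6 group means was P209L Control (0.05 TPM), P209L (4.92 ± 2.40), KO Control (9.77 ± 1.43), KO (10.5 ± 1.74), R206W Control (13.2 ± 2.30) and R206W (14.6 ± 2.34), with SD over 3 mice. Neighbours in that order overlapped from KO Control upwards, whereas P209L Control, P209L and KO Control mice did not overlap. The 0 of P209L Control 1 is an estimate and not a count. That library had 32 genes listed at 0 whose mean was at least 5 TPM in the other mice, within the 16 to 34 of the 17 libraries. It also had 8 genes of at least 1 TPM on average that were at 0 in that mouse alone, the most of the 17 libraries, against 0 to 5 in the others. At the same time none of 10 housekeeping genes was at 0 in any mouse.

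For Hipk2 the group means rose in the order P209L, P209L Control, R206W (24.7 TPM), KO Control (25.5), KO (27.5) and R206W Control (28.7). For Klf12 the order was P209L Control, P209L, KO Control (16.5 TPM), KO (16.9), R206W (17.9) and R206W Control (20.1). For Shc3 it was P209L, P209L Control, KO (51.9 TPM), R206W Control (54.2), R206W (54.4) and KO Control (54.5), and for Gm7292 it was P209L Control, P209L, KO (222 TPM), KO Control (229), R206W (253) and R206W Control (275). In these 4 genes all neighbours in the order overlapped except at the step from 3 to 8 weeks. The coefficient of variation at 8 weeks, over 12 mice, was 8.51% for Hipk2, 8.94% for Shc3, 11.7% for Klf12, 12.1% for Gm7292 and 22.1% for Gm20431.

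The genes that share sequence with Gm7292 and Gm20431 were examined after these values were seen. 2900097C17Rik, at 436 to 537 TPM in the 8-week mice, was at 338 to 410 TPM in the 3-week mice. In the mutants its difference was -0.38 ± 0.0790 (limma adjusted p = 0.00390), with a P209L mean of 76.6% of the 8-week mutant mean; this was not called with median-of-ratios size factors (-0.19, adjusted p = 0.149). Gm7292 made up 29.2% to 36.7% of the sum of the pair at 8 weeks and 13.1% to 18.6% at 3 weeks, without overlap. The summed level of the pair differed by -0.70 in the mutants (limma adjusted p = 0.000273) and by -0.80 in the controls. How reads were divided between the 2 genes is not given in the sources used here, and its part in the Gm7292 difference was not tested.

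For Gm20431 the sum behaved differently from the gene alone. Gm20431 was 4.86% to 10.3% of the summed level of Gm20431, Ube2v1 and Tmem189 at 8 weeks, 1.95% to 5.03% in P209L mice and 0% to 0.0685% in P209L Control mice. The sum was 137 and 146 TPM in P209L Control mice and 113 to 162 TPM in the 8-week controls, with a difference of -0.018. In the mutants it was 110 to 138 TPM in P209L mice and 141 to 186 TPM at 8 weeks, with a difference of -0.34 (limma adjusted p = 0.0291). Between P209L mice and their controls the sum differed by -0.19, opposite in sign to Gm20431 alone. Ube2v1 was at 94.0 and 102 TPM in P209L Control mice and at 73.5, 79.8 and 87.6 TPM in P209L mice. The difference of -0.29 ± 0.155 did not pass the threshold (limma adjusted p = 0.745). Tmem189 was at 43.2 and 43.6 TPM in the controls and at 34.2, 38.7 and 43.6 TPM in P209L mice (-0.16 ± 0.175, limma adjusted p = 0.931).

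**Figure D3:**
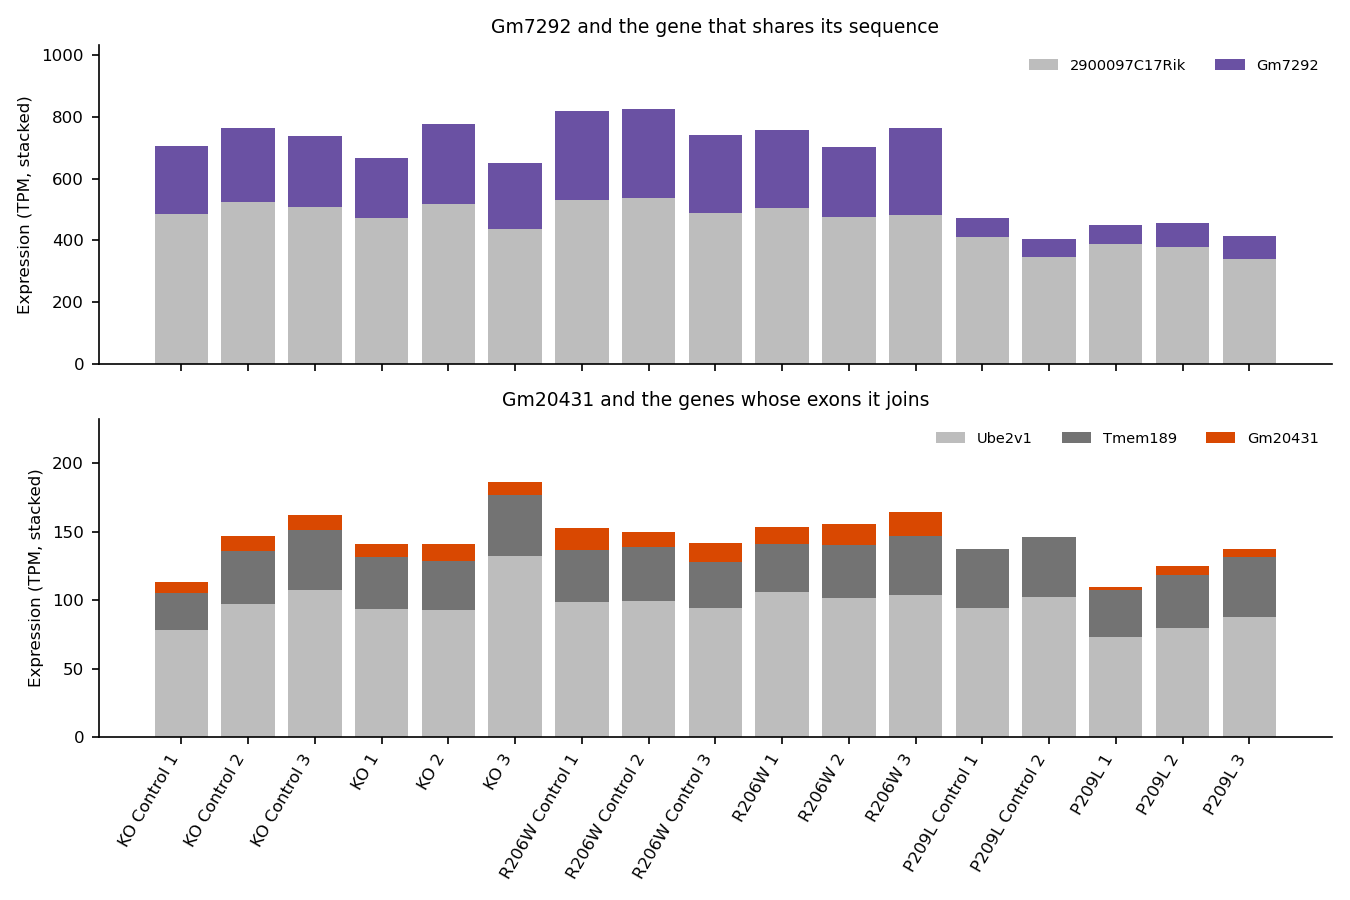
Stacked TPM (y axes, from 0) in each mouse (x axis) of Gm7292 with 2900097C17Rik (top) and of Gm20431 with Ube2v1 and Tmem189 (bottom). Gm7292 is 13.1% to 18.6% of its bar in the 5 mice of the P209L line and at least 29.2% elsewhere, while Gm20431 is at 0 and 0.1 TPM, too little to be seen, in the bars of P209L Control 1 and 2, which reach 137 and 146 TPM.

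Genes at the same loci did not share the size of these differences. Clec2l, 13.5 kb from Hipk2, rose in P209L mice against the 8-week mutants (0.78 ± 0.0914, limma adjusted p = 0.000332), opposite to Hipk2. Tbxas1, whose span overlaps that of Hipk2 on the opposite strand without shared exons, differed by -0.072 (adjusted p = 0.655), and Parp12 by -0.17 (adjusted p = 0.220). S1pr3, 8.2 kb from Shc3, fell by 0.62 on the log2 scale (adjusted p = 0.00776), and Cks2 on the other side differed by 0.29 (adjusted p = 0.223). Klf5, the nearest coding gene on one side of Klf12 at 555.6 kb, differed by -0.15 (adjusted p = 0.355), while Prr30 on the other side was listed at 0 in all mice. Cxcl12 and Zfp637 beside Gm7292 differed by -0.29 (adjusted p = 0.0566) and 0.18 (adjusted p = 0.160). Cebpb, beside Gm20431, fell by 0.47 (adjusted p = 0.0222). The antisense transcript 1700030F04Rik, which overlaps Gm7292, was at no more than 0.18 TPM, and Snai1, on the other side of Gm20431, was at no more than 0.76 TPM.

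The relatives of the kinase were lower in the 3-week mice of the P209L line too. Of the 3 other HIPK genes, 2 were tested, and both fell in P209L mice against the 8-week mutants, where 34.0% of all genes did. Both also fell under every other scaling tried. With median-of-ratios size factors 3776 of all 16265 genes were called lower. Hipk1 had means of 21.0 and 43.3 TPM (-1.01 ± 0.0822, limma adjusted p = 0.000114), and Hipk3 of 22.5 and 36.0 TPM (-0.65 ± 0.139, limma adjusted p = 0.00452). Both were also lower in the control contrast (-1.25 ± 0.123 and -1.02 ± 0.163), in which 24.8% of all genes were called lower. At 3 weeks Hipk2 was at 3.82 to 6.65 TPM and thus the least abundant of the 3 kinases, and at 8 weeks, too, its mean of 26.6 TPM lay below those of Hipk1 and Hipk3, at 45.2 and 36.3 TPM.

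Of 12 partners and substrates of HIPK2, 6 fell, 0 rose and 6 did not pass the threshold in the mutants, with a median difference of -0.35 against -0.16 for all genes. Of all genes 34.0% were called lower there, and after rescaling by median of ratios 4 of the 12 fell, against 3776 of all 16265 genes, so these counts lay near the background. Those with the smallest p were Ep300, a histone acetyltransferase (-0.95 ± 0.132, limma adjusted p = 0.000639), Axin1, a scaffold of Wnt signalling (-0.55 ± 0.1303, limma adjusted p = 0.00734), Trp53, which encodes p53 (-0.46 ± 0.125, limma adjusted p = 0.0136), and Pml, the organiser of nuclear bodies (-0.56 ± 0.163, limma adjusted p = 0.0192). The ubiquitin ligase genes Mdm2 (-0.028), Siah1a (-0.0015), Siah1b (-0.26), Siah2 (-0.39) and Wsb1 (-0.069) did not pass, and neither did Daxx (-0.34). In the controls 2 of 12 fell, Ep300 and Axin1, where 24.8% of all genes were called lower.

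Of the 16 other KLF genes, 13 were tested, and in the mutants 9 fell and 0 rose (median -0.66), against 34.0% of all genes called lower. After rescaling by median of ratios 6 of the 13 fell, against 3776 of all 16265 genes, and Klf4, Klf9 and Klf10 no longer passed. Klf13 (-1.11 ± 0.116, limma adjusted p = 0.000211), Klf7 (-0.74 ± 0.108, limma adjusted p = 0.000835) and Klf3 (-0.75 ± 0.117, limma adjusted p = 0.00110) fell without overlap between groups, as 28.6% of all genes were lower without overlap. Klf2, Klf4 and Klf10, which respond rapidly to stimuli, had differences of -1.25 ± 0.355, -1.06 ± 0.385 and -0.89 ± 0.308, and their groups overlapped. The summed level of 6 immediate-early genes was 327 to 613 TPM at 3 weeks and 512 to 1868 TPM at 8 weeks, and its part in these differences was not tested. Of the CtBP corepressor genes, Ctbp1 fell (-0.58 ± 0.118, limma adjusted p = 0.00376), and Ctbp2 differed by -0.24 ± 0.121 (limma adjusted p = 0.127). In the controls 9 of the 13 KLF genes and both CtBP genes fell, where 24.8% of all genes were called lower. After rescaling by median of ratios 6 KLF genes fell and 1, Klf11, rose. The KLF median was then -0.53, against 0.016 for all genes. The share of all genes called in the controls after rescaling is not given here, so these rescaled counts stand without a background.

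The Shc adaptors differed from each other. Shc4 was at means of 2.39 and 4.31 TPM in P209L mice and 8-week mutants and fell (-0.64 ± 0.117, limma adjusted p = 0.00213). In that contrast 34.0% of all genes were called lower. Shc1 differed by -0.15 ± 0.126 (limma adjusted p = 0.358), close to the median of all genes. Shc2 was at 38.0 and 32.3 TPM (0.22 ± 0.115, limma adjusted p = 0.139), and with median-of-ratios size factors it was called higher (0.41, adjusted p = 0.00476). With that rescaling 3935 of all 16265 genes were called higher. In the controls Shc2 was higher at 3 weeks (41.8 against 30.003 TPM, 0.48 ± 0.162, limma adjusted p = 0.0308). There 1837 of all 16265 genes were called higher. Shc2 was thus the more abundant of Shc2 and Shc3 in every group of the P209L line, with means of 41.8 and 38.0 TPM against 15.7 and 14.2 TPM, and Shc3 was the more abundant at 8 weeks.

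**Figure D4:**
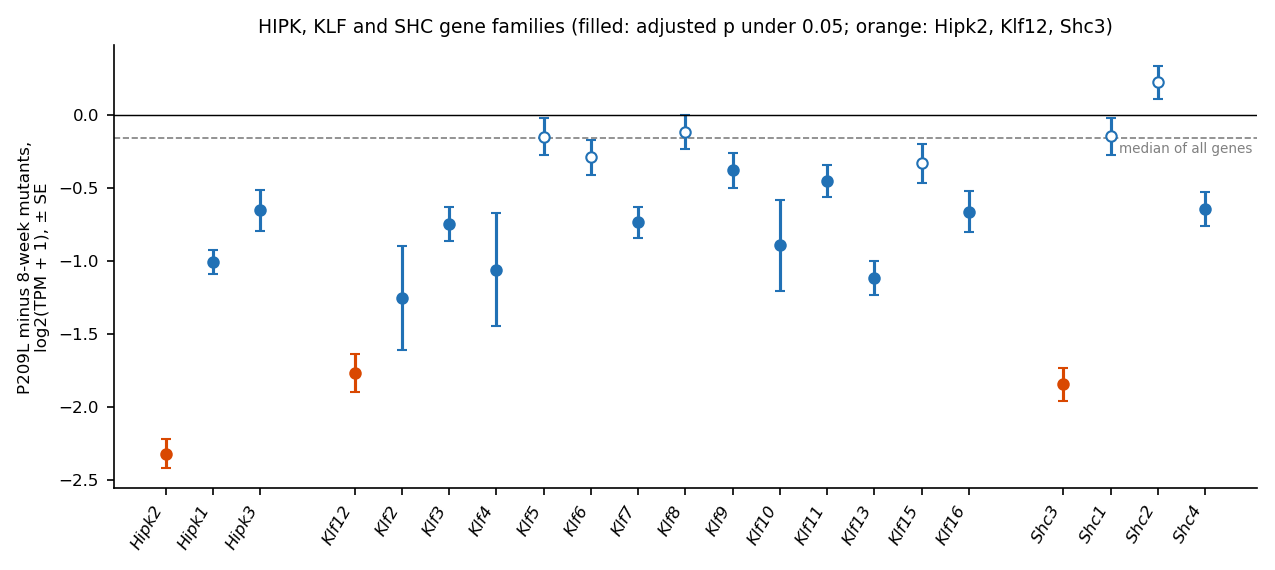
Difference in log2(TPM + 1) ± SE (y axis) between P209L mice and the mean of KO and R206W mice for the tested HIPK, KLF and SHC genes (x axis), with filled points where the limma adjusted p was under 0.05 and a dashed line at the median of all genes, -0.16. Hipk2, Klf12 and Shc3 (orange), chosen for a like difference in the controls, lie at -2.32, -1.77 and -1.84, below all of their relatives, of which Shc2 alone lies above 0.

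Of 19 genes of the neurotrophin and Ras adaptor pathway around Shc3, 16 were tested. In the mutants 10 fell and 0 rose (median -0.54), against 34.0% of all genes called lower. After rescaling by median of ratios 8 fell and 1, Hras, rose, against 3776 lower and 3935 higher of all 16265 genes. The genes with the smallest p were Frs2, a docking protein (-0.76 ± 0.0909, limma adjusted p = 0.00035), Sos2, an activator of Ras (-0.80 ± 0.0981, limma adjusted p = 0.000397), Gab1, another docking protein (-0.87 ± 0.113, limma adjusted p = 0.000483), and Sos1 (-0.73 ± 0.102, limma adjusted p = 0.000688). Grb2, the direct partner of Shc proteins, had means of 55.3 and 93.8 TPM (-0.75 ± 0.109, limma adjusted p = 0.00078). Ntrk2, the receptor of BDNF, fell by 0.61 (adjusted p = 0.00169), whereas Ntf3 (0.37), Hras (0.13) and Bdnf (-0.59) did not pass the threshold. In the controls 9 of 16 fell and 1, Hras, rose, where 24.8% of all genes were called lower and 1837 of 16265 higher. Bdnf was among those that fell there (-1.08 ± 0.247, limma adjusted p = 0.00364).

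Summed cell type markers were set beside these differences. In P209L mice the summed excitatory neuron markers were at 1248 to 1608 TPM against 2007 to 2676 TPM in the 8-week mutants, and the 5 blood markers at 1905 to 2837 TPM against 560 to 1323 TPM. The oligodendrocyte markers were at 2576 to 3680 TPM against 2942 to 4116 TPM, and these ranges overlapped. Sums of other glial markers were also lower in P209L mice without overlap. Astrocyte markers were at 825 to 1074 TPM against 1308 to 1638 TPM. Microglia markers were at 151 to 176 TPM against 197 to 275 TPM, and oligodendrocyte precursor markers at 61.6 to 81.8 TPM against 119 to 140 TPM. Single markers did not all follow these sums. Aif1, of the microglia list, went the other way, at 16.0 to 22.5 TPM in all 3-week mice and 9.07 to 14.0 TPM in all 8-week mice. Of the precursor list, Bcas1 was at 31.1 to 76.1 TPM and 71.3 to 102 TPM in these mice. The ranges of Pdgfra, Cspg4 and Gpr17 overlapped more widely. Sums of interneuron, endothelial, leptomeningeal, choroid plexus, striatal, skeletal muscle, immature neuron and immediate-early markers overlapped. The part of these markers in the differences of the 5 genes was not tested.

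Over the 17 mice the levels of the genes followed each other, a description in which the gap between ages dominates. Pearson's r of log2(TPM + 1) was 0.989 between Gm7292 and Klf12, 0.981 between Hipk2 and Klf12, 0.978 between Hipk2 and Shc3 and 0.764 between Gm20431 and Shc3. The genes most like each were Ankrd40, Rassf2 and Glns-ps1 for Hipk2 (r of 0.993, 0.990 and 0.989), and Gm10010, Uprt and Ids for Klf12 (0.989, 0.988 and 0.987). Pogk, Zfp365 and Setd7 (0.984, 0.982 and 0.982) were most like Shc3, and Uprt, Ids and Homer2 (0.990, 0.990 and 0.988) were most like Gm7292. Pum2 (0.956) and Ahcyl2 (0.937) were most like Gm20431. Pum2, which encodes a PUMILIO protein, was at 52.1 and 48.8 TPM in P209L Control mice, at 70.6, 69.1 and 77.8 TPM in P209L mice and at 74.0 to 94.1 TPM at 8 weeks. Since it was picked for its likeness to Gm20431, its higher level in each P209L mouse than in each control, by 0.51 ± 0.103, is a description, and 14.2% of all genes were higher without overlap there. With the 6 group means removed, r was 0.73 between Gm20431 and Klf12 and 0.66 between Gm20431 and Gm7292. It was 0.40 between Hipk2 and Klf12 and 0.061 between Gm7292 and Hipk2. The genes with the highest r after this step were Arhgap30, Ppfibp2 and Gstp2 for Hipk2 (0.939, 0.935 and 0.927), Abhd5, Rbm26 and Tmf1 for Klf12 (0.916, 0.907 and 0.898), Paqr8, Ccnd1 and Smoc2 for Shc3 (0.912, 0.910 and 0.898), Ids, Pnma1 and A830052D11Rik for Gm7292 (0.936, 0.904 and 0.882) and Gstm4, Gm7672 and Jrk for Gm20431 (0.933, 0.930 and 0.924). These genes were picked for the highest r among all tested genes, so their r is a description and was not tested. Ids was among the 3 most like Gm7292 by both measures.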

How the data were processed

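RNA of bulk cortex was sequenced from 17 mice, with total RNA from frozen tissue and a stranded total RNA kit. The authors deposited TPM values by gene symbol, rounded to 2 decimals, with a column for each mouse. The submitters' processing notes name mm10, Trim Galore, STAR 2.7.1a, GATK 4.0.4.0 and RSEM, without roles. The annotation and read length are not given in the sources used here. TPM keeps no depth, so the depth per mouse is unknown and precision rests on the spread between mice. Of the 55453 symbols, left after 120 repeated entries were summed, 98.3% are in GENCODE M21 (GRCm38, the build of mm10), which gave coordinates and transcripts.

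Genes with a mean of at least 1 TPM (16265) were fitted as log2(TPM + 1) with limma 3.58.1 in R 4.3.3 (trend=TRUE, two-sided), with Benjamini-Hochberg adjustment over all genes and a threshold of 0.05. The 9 mutants were fitted alone for P209L against the mean of KO and R206W mice and for R206W against KO mice. All other contrasts used all 17 mice. The script was tested on simulated data. Fold changes on the log2(TPM + 1) scale understate those of low genes. Alternatives changed the pseudocount, filter, scaling, eBayes setting, replicate block and mice included; sums over genes of shared sequence and list counts under other scalings were added after the values were seen.

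The genes and lists were chosen with earlier results of these data known. The text names the 5 genes, relatives in their families, up to 4 called genes per pathway list with the smallest p, overlapping and nearest coding genes, the 3 most like genes by r over 17 mice and the 3 by r of deviations from group means, and the 5 genes ranked next. Some genes that this rule or the lists name are not reported here. Named outside this rule, after values were seen, were 2900097C17Rik, Grb2, Ntrk2 and list genes that did not pass. Same-numbered mice correlated from -0.058 to 0.315 in their deviations, so numbers were not taken as pairs. Mice are separate animals by their labels.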

Additional observations from a re-analysis of the deposited data

How the results depend on the processing

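The 5 differences between P209L mice and 8-week mutants kept their direction and stayed past the threshold under all 19 alternatives, from -0.86 to -1.47 for Gm20431 and from -2.14 to -2.53 for Hipk2. The number of genes called in that contrast, 7772, ranged from 5823 to 8141 with each mouse left out. The count between R206W and KO mutants, 9, ranged from 5 to 13, and was 5 without R206W replicate 1. In the control contrast 5876 genes were called, and leaving out a mouse gave 2719 to 8181. It gave 2988 without P209L Control replicate 1 and 2719 without P209L Control replicate 2, where the lone control is assumed to vary like the other groups. For KO mice the count of 1 became 2 without a filter or with robust eBayes, and 1 to 5 with a mouse left out, at 5 without KO Control replicate 1 and 2 without KO replicate 1 or KO Control replicate 2. For R206W mice the count of 6 became 11 with quantile normalization, and 5 to 6 with a mouse left out. For P209L mice the count of 16 became 52 without a filter, 67 with median-of-ratios size factors, 58 with quantile normalization and 32 with mitochondrial genes removed. With a mouse left out it was 8 to 26, at 26 without P209L Control replicate 1 and 8 without P209L Control replicate 2. The replicate block gave 25 there, 8455 between P209L mice and 8-week mutants and 11 between R206W and KO mutants, and it changed no call of the 5 genes. The cause was not tested. In the controls, the difference of Gm20431 was -4.43 and -6.33 with pseudocounts of 0.5 and 0.1, and that of Hipk2 was -1.87 without P209L Control replicate 1 and -2.47 without P209L Control replicate 2. Depth is unknown, so no limit of detection can be given for Gm20431 in P209L Control mice.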
